A study of Danio rerio with 10 samples.

Results

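The genes described here encode the proteins of the cytosolic ribosome of the zebrafish, measured in whole embryos in which *islet2a*, a gene for a LIM-homeodomain transcription factor of motor neurons, had been disrupted by 2 different methods. The members were set by name only, from the probe sets of the array annotation with 1 gene symbol. The symbol had to begin with rpl or rps and a number, or with rplp0, rplp1, rplp2 or rpsa. The S6 kinases (rps6k), rps27l and rps19bp1 were left out. This group of genes was taken up with earlier results of these data known. The rule found 69 of 19260 named genes, measured by 84 of 75212 probe sets. Where a gene had more than 1 probe set, the brightest over the 10 arrays was used. The 69 genes were 35 of the large subunit, 28 of the small subunit (with *rpsa*), 3 of the stalk (*rplp1*, *rplp2* and *rplp2b*) and 3 whose symbols mark them as relatives of a ribosomal protein gene (*rpl7l1*, *rpl22l1* and *rps26l*). Of the protein-coding genes in the RefSeq gene table, 83 had symbols that fit the rule, and 69 of them were measured here.

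RNA was isolated from pools of whole embryos at 48 hpf (2 dpf), and every array (GeneChip Zebrafish Gene 1.0 ST) was hybridized with the RNA of 1 pool. Morphants (3 arrays) were wildtype embryos injected at the one-cell stage with T-MO, an antisense morpholino that blocks translation of *islet2a*. Mutants (3 arrays) were homozygous for a TALEN-made frameshift deletion in exon 2 of *islet2a*, a single allele. The control group joined uninjected wildtype embryos (2 arrays) and sibling wildtype embryos of the mutants (2 arrays, titled as mock controls), and none of the 10 arrays held embryos injected with a control morpholino, so that the effect of the T-MO sequence and that of injection cannot be told apart. Whether replicate pools were from different clutches is not given in the sources used here, and the p-values rest on the spread among the pools, which may be technical. The values were log2 signals after robust multi-array averaging (RMA), on which a difference of 1 is a 2-fold change. The *islet2a* probe set itself (*isl2a*) read 8.51 to 8.61 in the 4 control arrays, 9.79 to 9.96 in the morphants and 8.95 to 9.13 in the mutants, and neither a translation block nor a frameshift need lower the signal of the mRNA. Across all probe sets, arrays of the same group correlated at Pearson's r of 0.983 to 0.992 and arrays of different groups at 0.972 to 0.988.

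A ribosome is built from ribosomal RNA and a fixed set of proteins, each present in 1 copy except in the stalk, so cells make these proteins in balanced amounts. Ribosomal protein mRNAs are among the most abundant of growing cells. In vertebrates they begin with a pyrimidine tract (the 5′ terminal oligopyrimidine or TOP motif), through which the mTOR pathway and the RNA-binding protein LARP1 control their translation and storage. Assembly takes place mostly in the nucleolus and needs many other factors, such as nucleolar helicases, GTPases and snoRNP proteins, which are encoded by another set of genes, called ribosome biogenesis genes here. Mutations of ribosomal protein genes cause Diamond-Blackfan anemia in humans and anemia and growth defects in zebrafish.

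The ribosomal protein genes were bright and steady on these arrays. Their mean log2 signal ran from 5.62 (*rps8b*) to 12.39 (*rpl7*) with a median of 10.35, and all 69 lay above the median of all probe sets (4.95). Of the 69, 58 lay in the top 10% of all probe sets by mean signal (above 8.22) and 24 in the top 1% (above 10.91). The highest value on any array was 13.25. The dimmest were *rps8b*, *rpl10* (7.21) and *rpl17* (7.71), and the brightest were *rpl7*, *rpl6* (12.21) and *rps3* (12.10). A signal depends on the probes as well as the mRNA, so this order is not one of mRNA levels. The median residual SD of a ribosomal protein gene within groups was 0.0833 log2 units, against 0.165 over all probe sets and 0.144 over all named genes. All probe sets and all named genes were dimmer (median signals 4.95 and 6.77), and the SD was not compared at matched signal.

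The mean of the 69 genes, each centred over the 10 arrays, stayed within 0.154 log2 units from the lowest to the highest array. It read 0.020 and 0.072 in the uninjected wildtype arrays and -0.041 and 0.034 in the sibling wildtype arrays. It read 0.041, 0.004 and -0.082 in the morphants and 0.039, -0.018 and -0.069 in the mutants. The groups overlapped, and the SD between arrays of 1 group was 0.055. Morphant replicate 3 and mutant replicate 3 were the lowest, with many genes a little below their mean. The map of centred signals by gene and array shows this, with *rpl7l1* as the row that stands apart.

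**Figure D1:**
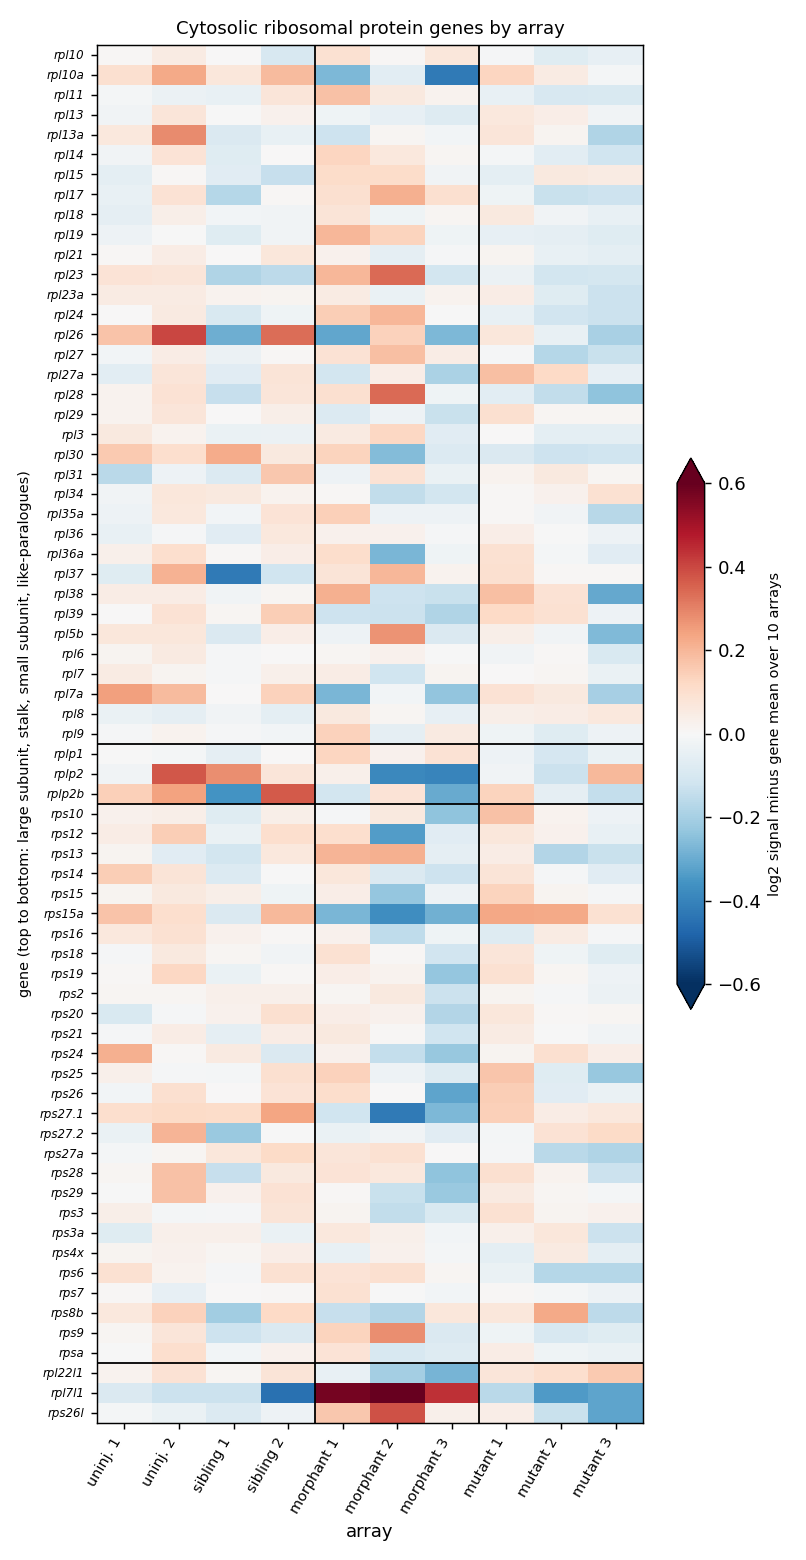
Log2 signal of the 69 cytosolic ribosomal protein genes (rows) on each of the 10 arrays (columns), minus the mean of the gene over the arrays. Most rows are pale, and *rpl7l1* is high in the 3 morphant arrays (8.29 to 8.45) against 7.41 to 7.77 in the others.

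The comparison of morphants with control asked how embryos with a morpholino against *islet2a* differed from wildtype embryos. *rpl7l1* rose, *rps27.1*, *rps15a* and *rpl10a* fell, and the other 65 of the 69 genes did not pass the test (limma, Benjamini-Hochberg adjusted p below 0.05 over all 75212 probe sets). These 4 calls are 5.80% of the genes, and the background was 5.17% of all probe sets (3.59% higher and 1.57% lower) and 9.94% of named genes at 1 probe set per gene. None reached 2-fold, which 0.818% of all probe sets passed with the test. The log2 changes ran from -0.43 (*rplp2*) to 0.73 (*rpl7l1*) with a median of -0.03, and the median over all probe sets was -0.02. Of the 69 genes, 28 had a positive change and 41 a negative one, 56 differed by less than 0.2 log2 units, and 8 had an unadjusted p below 0.05. For 63 of them (91.3%) the 95% interval of the change lay within 1.5-fold in either direction, against 70.5% of all probe sets and 74.8% of named genes, and no interval reached 2-fold. The 6 with wider intervals were *rpl10a*, *rpl26*, *rpl7l1*, *rplp2*, *rps15a* and *rps27.1*. Over all 75212 probe sets, 48655 differed by less than 0.2 log2 units and 14254 had an unadjusted limma p below 0.05.

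The 35 genes of the large subunit had a median change of 0.03 with 19 positive, and the 28 of the small subunit a median of -0.06 with 6 positive. Over all probe sets 33656 of 75212 changes were positive. The centred mean of the small subunit genes read 0.034, -0.049 and -0.116 in morphants and -0.028 to 0.063 in control arrays. These groups overlapped, and morphant replicate 3 was the lowest. The ranges of morphant and control arrays did not overlap for 13 of the 69 genes (18.8%), 5 of them higher and 8 lower in morphants. Over all probe sets this share was 17.8%. Arrays of whole embryos cannot tell fewer cells of a type from less RNA per cell, here and in all that follows.

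Among the relatives of ribosomal protein genes, *rpl7l1* had the largest change of all 69. Its product is related to Rpl7 of the large subunit, and its yeast relative Rlp7 is an assembly factor of the large subunit rather than part of the finished ribosome. *rpl7l1* read 7.77 and 7.73 in uninjected wildtype, 7.73 and 7.41 in sibling wildtype, 8.43, 8.45 and 8.29 in morphants, and 7.70, 7.52 and 7.54 in mutants. All 3 morphant arrays were above all 7 others, and mutant and control arrays overlapped. The rise against control was 0.73 ± 0.11 (SE) log2 units or 1.66-fold, with an adjusted p of 0.00379 in limma and an exact two-sided permutation p of 0.0286, the smallest that 3 against 4 arrays allow. With uninjected wildtype as the reference the rise was 0.64 (limma adjusted p = 0.0325), and with sibling wildtype it was 0.82 (adjusted p = 0.00737). The call was kept in 22 of 23 alternative settings and was lost in the 2-group tests of the methods (adjusted p = 0.0607). *rpl7*, the gene for the ribosomal protein itself and the brightest of the 69, changed by -0.04 in morphants (limma adjusted p = 0.83).

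The other relatives did not pass the test. *rps26l*, with the next largest positive change, read 11.07 and 11.04 in uninjected wildtype, 10.999 and 11.05 in sibling wildtype, 11.24, 11.46 and 11.11 in morphants, and 11.12, 10.95 and 10.76 in mutants. Its morphant arrays lay above the control arrays, and the change was 0.23 (limma adjusted p = 0.287), while *rps26* had -0.11 (adjusted p = 0.652). *rpl22l1*, whose relative Rpl22 binds RNA in the large subunit, read 7.80 to 7.87 in the 4 control arrays and 7.74, 7.58 and 7.51 in morphants. The groups did not overlap, and the change was -0.22 (adjusted p = 0.154).

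In the small subunit, *rps27.1* and *rps15a* fell in morphants. Rps27 is a zinc finger protein of the small subunit and Rps15a binds the ribosomal RNA of that subunit. *rps27.1* read 10.004 and 10.02 in uninjected wildtype, 10.02 and 10.14 in sibling wildtype, 9.79, 9.48 and 9.63 in morphants, and 10.05, 9.95 and 9.97 in mutants. All morphant arrays were below all others, and the fall was 0.41 ± 0.09 (SE) log2 units, a ratio of 0.752 (limma adjusted p = 0.0279, exact two-sided permutation p = 0.0286). The duplicate *rps27.2* read 8.32 to 8.37 in morphants, inside the control range of 8.17 to 8.59, with a change of -0.03 (adjusted p = 0.920). *rps15a* read 9.21 and 9.14 in uninjected wildtype, 8.95 and 9.23 in sibling wildtype, 8.76, 8.66 and 8.75 in morphants, and 9.27, 9.26 and 9.13 in mutants. Morphant arrays were again below all others, and the change was -0.41 ± 0.09 (adjusted p = 0.0304, exact permutation p = 0.0571). *rpsa*, the laminin receptor homologue of the small subunit, had -0.06 (adjusted p = 0.764), and *rps6*, a target of the S6 kinases, had 0.01 (adjusted p = 0.953).

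In the large subunit, *rpl10a* fell. It encodes the protein of the mobile L1 stalk beside the exit site for tRNA. *rpl10a* read 9.59 and 9.72 in uninjected wildtype, 9.56 and 9.69 in sibling wildtype, 9.23, 9.43 and 9.07 in morphants, and 9.63, 9.55 and 9.48 in mutants. Morphants were below all others but varied more than the other groups (SD 0.183 against 0.077 in control), and the change was -0.40 ± 0.10 (limma adjusted p = 0.0477, exact permutation p = 0.0286). Other genes of the large subunit with large changes did not pass the test. They were *rpl7a* (-0.32, adjusted p = 0.127), *rpl26* (-0.30, adjusted p = 0.398) and, on the positive side, *rpl37* (0.20, adjusted p = 0.459), *rpl23* (0.19, adjusted p = 0.447) and *rpl17* (0.16, adjusted p = 0.339). *rpl5b* and *rpl11*, whose products enter the large subunit with the 5S RNA, had 0.03 and 0.09.

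The 3 falls were small and close to the threshold. The call of *rps15a* was lost in 11 of 23 alternatives, with adjusted p-values of 0.0899, 0.102 and 0.0781 without morphant replicate 1, 2 or 3, 0.0754 without sibling wildtype replicate 2, and 0.0744 and 0.0550 without uninjected wildtype replicate 1 or 2. That of *rps27.1* was lost in 10 of 23, with 0.0955 and 0.0811 without morphant replicate 2 or 3, 0.0534 and 0.0698 without sibling wildtype replicate 1 or 2, and 0.0540 without uninjected wildtype replicate 1. That of *rpl10a* was lost in 14 of 23, among them the removal of any single array but morphant replicate 2 (0.0632 to 0.153). With either kind of wildtype alone as control, *rpl7l1* was the single call, 1 of 69 genes where 1.93% of all probe sets were called against uninjected and 4.1% against sibling wildtype. The count over the 69 genes was 1 without morphant replicate 3, sibling wildtype replicate 2 or uninjected wildtype replicate 1, and 2 without morphant replicate 1 or 2, sibling wildtype replicate 1 or uninjected wildtype replicate 2.

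**Figure D2:**
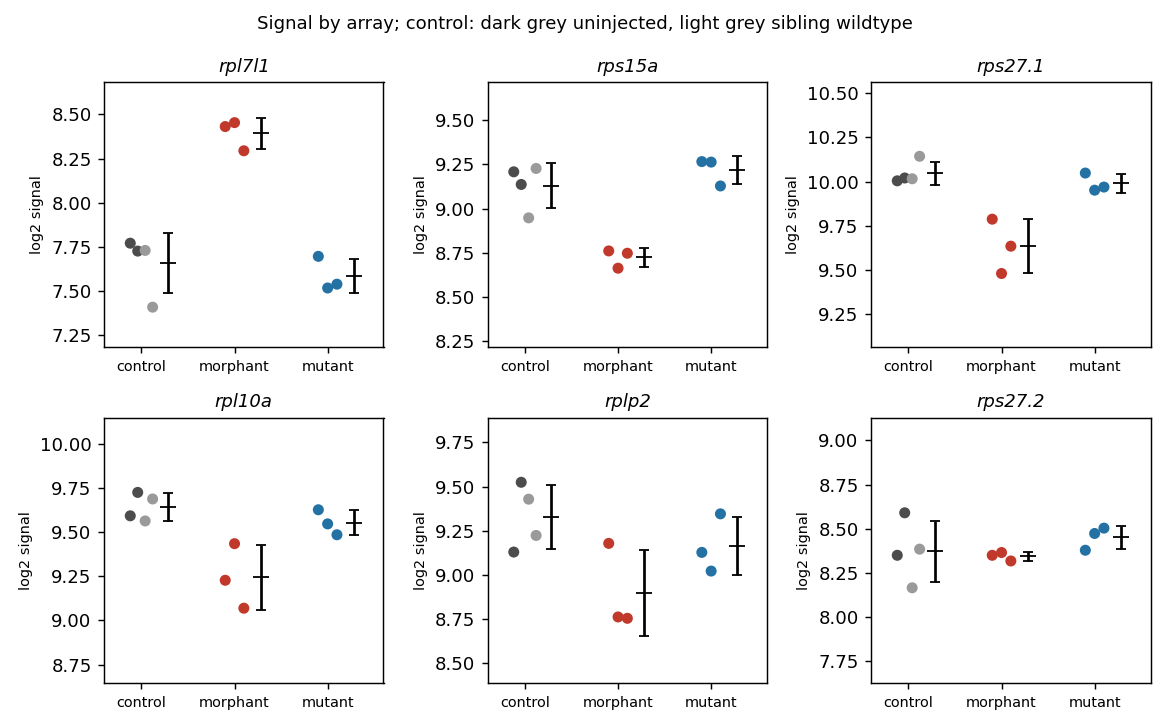
Log2 signal of 6 genes on each array, with dark and light grey for uninjected and sibling wildtype, red for morphants and blue for mutants, and bars for the mean ± SD of control (n = 4), morphants (n = 3) and mutants (n = 3). Each panel spans 1.5 log2 units. *rpl7l1* is higher and *rps15a*, *rps27.1* and *rpl10a* are lower in all morphant arrays than in all others, while the groups overlap for *rplp2* and *rps27.2* against control.

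The stalk genes encode the acidic proteins that recruit elongation factors to the ribosome. *rplp2* had the most negative change of all 69 (-0.43) with a limma adjusted p of 0.125. It read 9.13 and 9.52 in uninjected wildtype, 9.43 and 9.22 in sibling wildtype, 9.18, 8.76 and 8.76 in morphants, and 9.13, 9.02 and 9.35 in mutants, so that morphant replicate 1 lay among the others. *rplp2b* read 10.78 to 11.50 in control, 10.83 to 11.22 in morphants and 10.99 to 11.27 in mutants, and the lowest array was sibling wildtype replicate 1. *rplp1* read 11.84 to 11.89 in control and 11.92 to 12.02 in morphants, without overlap, and its change was 0.10 (adjusted p = 0.516).

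The comparison of mutants with control asked the same of the germline deletion. None of the 69 genes passed the test, and 2 had an unadjusted p below 0.05. In the 2-group tests of the methods the count was also 0. Over all probe sets 0.338% were called, and 0.306% of named genes. An unadjusted limma p below 0.05 was found for 10090 of all 75212 probe sets. The changes ran from -0.24 (*rpl30*) to 0.14 (*rpl37*) with a median of -0.04, 21 were positive and 48 negative, and 67 were smaller than 0.2 log2 units. The sign of so small a median was not stable, since quantile normalization repeated gave 0.004 in mutants against control. The 95% interval lay within 1.5-fold for 68 of the 69 genes, the exception being *rpl26*, against 74.4% of all probe sets. The 4 genes that moved in morphants had -0.07 (*rpl7l1*), -0.06 (*rps27.1*), 0.09 (*rps15a*) and -0.09 (*rpl10a*) in mutants, and their adjusted p-values were 0.735 or more.

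*rpl30* and *rps6* were the genes below 0.05 before adjustment in mutants. *rpl30* read 11.54 and 11.48 in uninjected wildtype, 11.60 and 11.44 in sibling wildtype, 11.51, 11.12 and 11.30 in morphants, and 11.29, 11.25 and 11.26 in mutants. The mutant arrays lay below all control arrays and close together, and the limma adjusted p was 0.318. *rps6* read 11.47 to 11.57 in control and 11.44, 11.30 and 11.31 in mutants, a change of -0.18 (adjusted p = 0.344). *rps27a*, which encodes a fusion of ubiquitin with a small subunit protein, had -0.16 (adjusted p = 0.412), and *rpl28* also had -0.16 (adjusted p = 0.561). The ranges of mutant and control arrays did not overlap for 4 genes (5.80%), against 12.1% of all probe sets.

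Morphants were then compared with mutants directly. *rpl7l1* was higher and *rps15a* and *rps27.1* were lower in morphants, 3 of 69 genes (4.35%), where 13.6% of all probe sets (7.5% higher and 6.11% lower) and 23.1% of named genes were called. None reached 2-fold with the test, against 2.52% of all probe sets. The difference was 0.81 ± 0.11 (SE) for *rpl7l1* or 1.75-fold (limma adjusted p = 0.00197), -0.50 ± 0.10 for *rps15a* (adjusted p = 0.00895) and -0.36 ± 0.10 for *rps27.1* (adjusted p = 0.0357). The calls of *rpl7l1* and *rps15a* were kept in all 21 alternatives. These held no 2-fold minimum and no mean over the probe sets of a gene, and some left out control arrays only. The second, dimmer probe set of *rps15a* had -0.16 (limma adjusted p = 0.293). The call of *rps27.1* was lost in 8 alternatives, with adjusted p-values of 0.107 and 0.0887 without morphant replicate 2 or 3 and of 0.0957, 0.0801 and 0.0857 without mutant replicate 1, 2 or 3. With 3 against 3 arrays the exact two-sided permutation p cannot go below 0.10, and it was 0.10 for each of these 3 genes. *rpl22l1* (-0.29, adjusted p = 0.0525), *rpl10a* (-0.31, adjusted p = 0.0843), *rps26l* (0.33, adjusted p = 0.0926) and *rpl28* (0.29, adjusted p = 0.124) came next. With arrays centred on bright probe sets or quantile normalization repeated, 1 gene was higher and 4 were lower. The median difference over the 69 genes was -0.01, 65 of 69 intervals lay within 1.5-fold, and the ranges did not overlap for 22 genes (31.9%, against 35.4% of all probe sets).

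**Figure D3:**
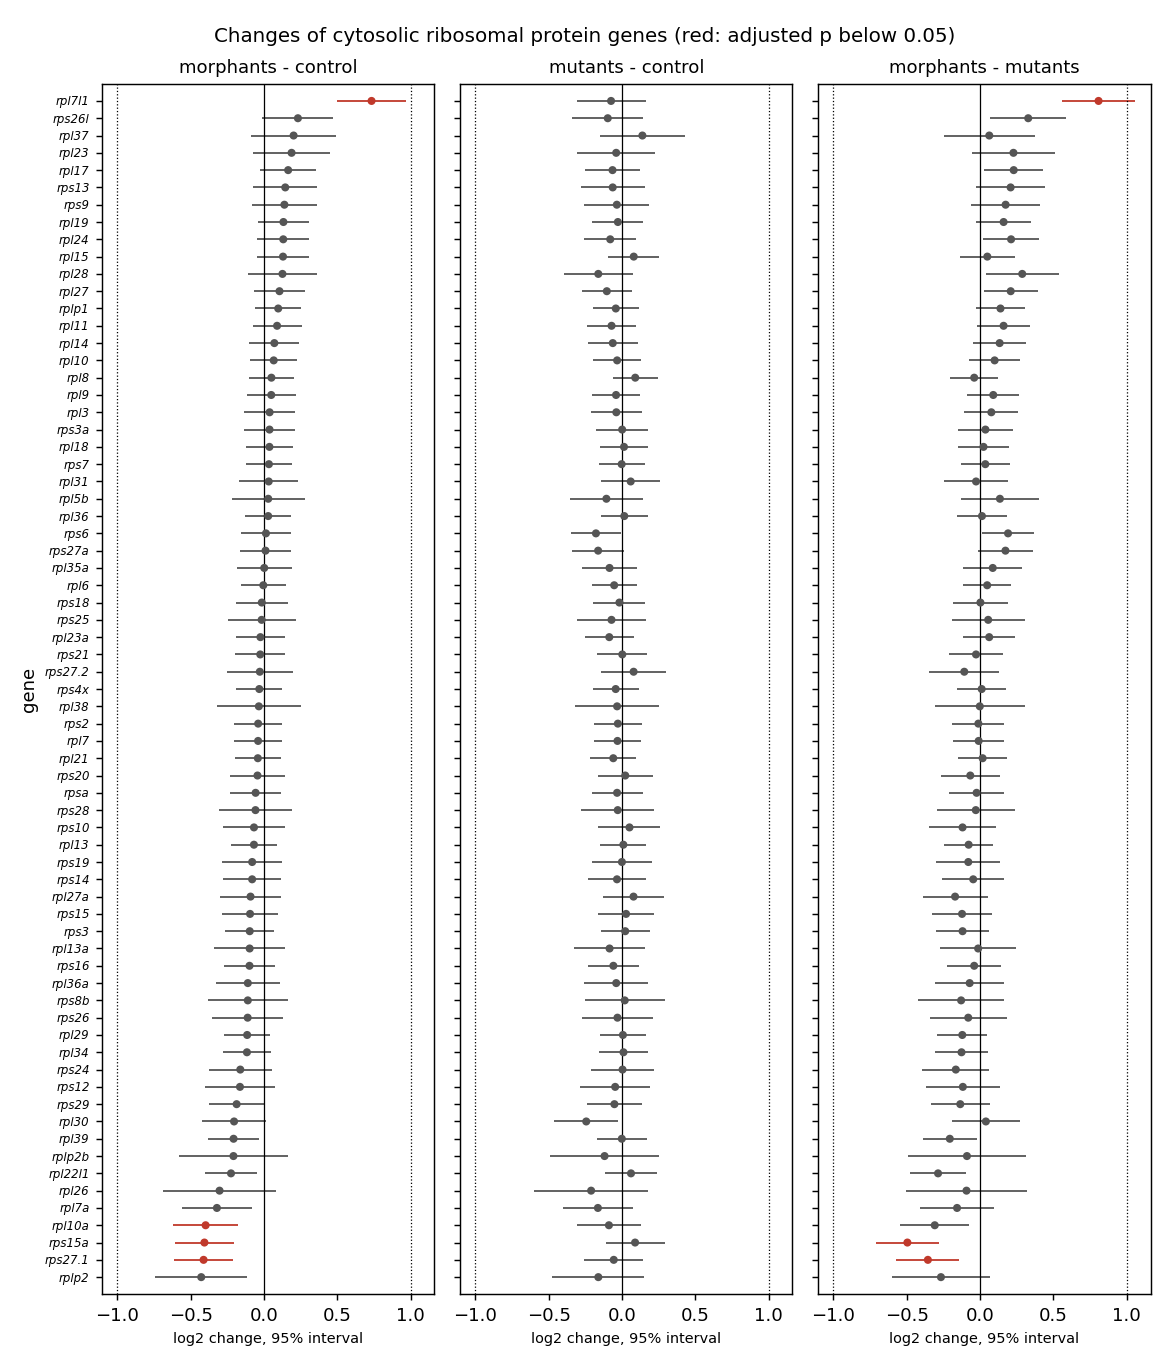
Log2 change of each of the 69 genes (rows, ordered by the change in morphants) with its 95% interval, for morphants against control, mutants against control and morphants against mutants. Red marks an adjusted p below 0.05 over all probe sets and dotted lines mark 2-fold. In morphants 4 genes are red, in mutants 0, and between morphants and mutants 3, and no point lies beyond 2-fold.

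Because morphants and mutants each had wildtype embryos of their own, the change of morphants from uninjected wildtype was also tested against the change of mutants from sibling wildtype. None of the 69 genes passed this test of the difference, where 0.775% of all probe sets did. *rpl7l1* (0.63, limma adjusted p = 0.130) and *rps15a* (-0.58, adjusted p = 0.128) were the 2 with an unadjusted p below 0.05. Between uninjected and sibling wildtype none of the 69 passed the test (0.0319% of all probe sets did), and *rpl37* alone had an unadjusted p below 0.05 (0.34, adjusted p = 0.678).

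For 15 of the 69 genes a second, dimmer probe set was on the array. Its change had the same sign as that of the brighter one for 10 of 15 genes in morphants against control, 11 in mutants against control and 10 in morphants against mutants. The median gap between the paired changes was 0.20, 0.14 and 0.18 log2 units. The second probe set of *rps27.1* had -0.52 in morphants against control (limma adjusted p = 0.0559) and -0.66 against mutants (adjusted p = 0.0142). That of *rps15a* had -0.02 (adjusted p = 0.937) and -0.16 (adjusted p = 0.293), so the fall of *rps15a* was seen by 1 of its 2 probe sets. That of *rps4x* had -0.38 (adjusted p = 0.0963), where the brighter one had -0.03. *rpl7l1* and *rpl10a* had a single probe set. Probes of near-identical duplicates, such as *rps27.1* and *rps27.2* or *rps26* and *rps26l*, can bind both mRNAs, and values of such pairs may be mixed.

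In morphants the size of the change was related to brightness. Against control its median was 0.111 in the 35 dimmer genes, which held all 4 calls, and 0.068 in the 34 brighter ones, and against mutants it was 0.126 and 0.082. In mutants against control the dimmer genes did not have the larger changes (medians 0.043 and 0.053). Spearman's rho of the size of the change with the mean signal over the 69 genes, all measured on the same arrays, was -0.36 in morphants against control, -0.09 in mutants against control and -0.29 in morphants against mutants. The part of signal level in the small changes was not tested. Of the 58 ribosomal protein genes in the top 10% of signal, 0 rose and 3 fell in morphants against control (5.17% called). Of the 3926 named genes in that range 347 rose and 175 fell (13.3% called).

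Genes for the assembly of ribosomes were read beside the genes for their proteins. The list of assembly genes was chosen with earlier results of these data known. Of 96 measured ribosome biogenesis genes (111 listed), 85 rose and 0 fell in morphants against control with a median of 0.77, where 7.13% of named genes rose. In mutants 0 of 96 passed (median -0.05), where 0.306% of named genes did. Against mutants 88 were higher, as were 13.5% of named genes, and 1, *ubtf* (a factor of ribosomal RNA transcription), was lower. The call of *ubtf* (-0.56, limma adjusted p = 0.0371) was lost in 7 of 21 alternatives, among them the removal of any single morphant or mutant array. The largest rises were 1.43 for *rrp8*, 1.396 for *utp4* and 1.396 for *nip7*. Against mutants the largest difference was 2.01 for *heatr1*, of which a part was a low signal in mutants. *heatr1* read 8.69 to 8.88 in morphants, 7.17 to 8.01 in control arrays and 6.72 to 6.88 in mutants. Its change in mutants against control was -0.908 (limma adjusted p = 0.0660). The mean log2 signal of the 96 genes was 8.49 to 8.57 in morphants, 7.68 to 7.74 in mutants and 7.59 to 7.92 in control arrays, so morphants lay above all others. Within the top 10% of signal 30 of 33 biogenesis genes rose in morphants. Their median signal was 8.76, against 10.75 for the 58 ribosomal protein genes in that range, so signal was not matched between the lists. The rise of *rpl7l1* lay inside the biogenesis list, where 55 of the 96 genes rose by more. It lay above the other 68 ribosomal protein genes, of which the highest had 0.23.

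The mitochondrial ribosome is a separate machine that translates the mitochondrial genome. Of 67 genes for its proteins 39 rose and 0 fell in morphants (median 0.50), where 7.13% of named genes rose. In mutants 0 passed (median -0.02), where 0.306% of named genes did. In morphants 44 were higher than in mutants, as were 13.5% of named genes. *mrps35* (1.02), *mrpl49* (1.00) and *mrps18b* (0.98) had the largest rises. Among 39 measured genes of a list of translation factors and other TOP mRNAs (48 listed), 4 rose in morphants and 0 fell, with a median of 0.01. These were *npm1a* (0.84), a nucleolar chaperone, *eif4e1c* (0.71), a cap-binding factor, *eif4a2* (0.44), a helicase of initiation, and *larp1* (0.42). *larp1* encodes the regulator of TOP mRNAs. Whether its own mRNA or those of the other listed genes have the motif was not examined. None of the 39 passed in mutants, where 0.306% of named genes did. Against mutants 7 were higher and *eif4a1b* was lower (-0.48) in morphants. These counts, 10.3% and 20.5% of the list, are near the shares of named genes called (9.94% and 23.1%) and are no result about the list. They fell from 4 to 2 without morphant replicate 1, uninjected wildtype replicate 1 or either sibling wildtype array, and from 8 to 3 without mutant replicate 3, 4 without mutant replicate 2 or morphant replicate 3, and 5 without mutant replicate 1 or morphant replicate 1. The call of *eif4a2* against control was lost in 12 of 23 alternatives.

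**Figure D4:**
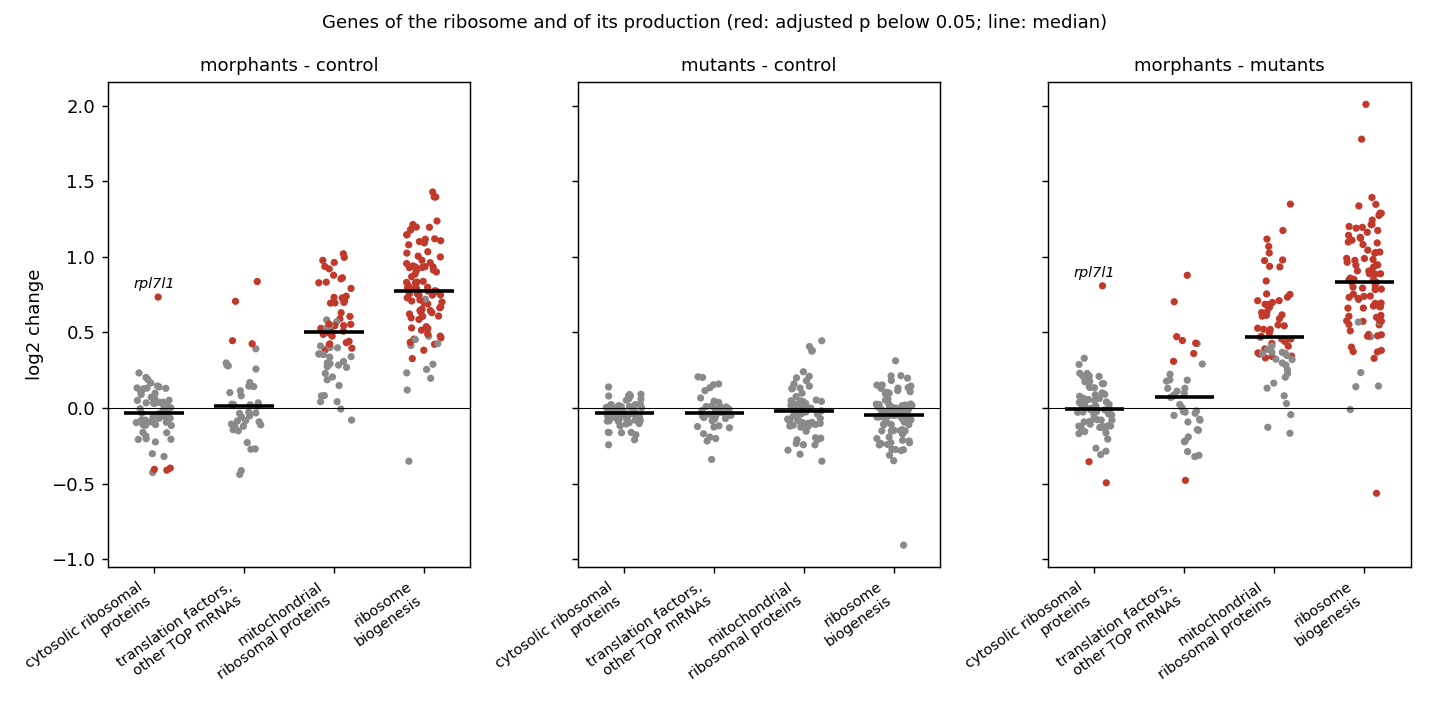
Log2 change of each gene (points) in 4 lists of genes, for morphants against control, mutants against control and morphants against mutants, with red for an adjusted p below 0.05 and a line at the list's median. In morphants the medians are -0.03 for the 69 cytosolic ribosomal protein genes, 0.01 for 39 translation factor and other TOP genes, 0.50 for 67 mitochondrial ribosomal protein genes and 0.77 for 96 biogenesis genes, and in mutants all 4 lie near 0.

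In the fit of 4 groups the order was similar against each group's own wildtype. Against uninjected wildtype alone 58 of 96 biogenesis genes, 21 of 67 mitochondrial and 1 of 69 cytosolic ribosomal protein genes rose in morphants, where 1.93% of all probe sets were called, a share that 1 of 69 is near. The change of morphants exceeded that of mutants for 20, 7 and 0 genes of these lists by the test of the difference. That test called 0.775% of all probe sets, in either direction. Uninjected wildtype itself was above sibling wildtype for 89 of the 96 biogenesis genes in sign (median 0.18), although none passed the test, and for 49 of the 69 cytosolic ribosomal protein genes (median 0.03). The median of this difference over all probe sets was 0.01.

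**Figure D5:**
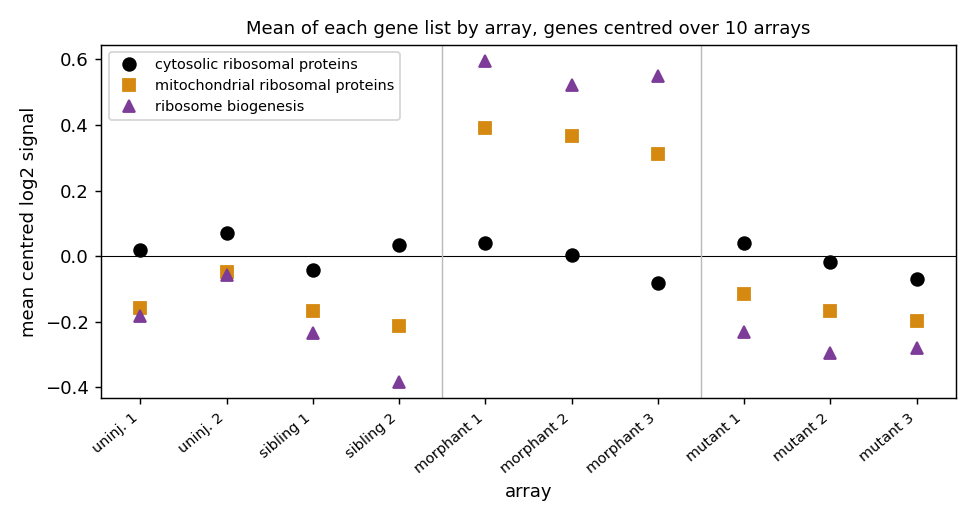
Mean log2 signal of each list on each array, with every gene centred over the 10 arrays. The cytosolic ribosomal proteins (black) lie between -0.082 and 0.072 on all arrays, while ribosome biogenesis genes (purple) and mitochondrial ribosomal proteins (orange) are higher in the 3 morphant arrays than in all others.

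Cell type markers were read beside these values because whole embryos can differ in composition. Proliferation genes had a negative change for 11 of 11 measured genes in morphants (1 fell, *cdk1*) and in mutants (0 fell), with medians of -0.28 and -0.45, and list means of 8.55 to 8.61 in morphants, 8.29 to 8.71 in mutants and 8.77 to 9.05 in control arrays. Of 9 neuronal markers 4 fell in morphants (list means 8.38 to 8.75 against 8.83 to 9.01 in control) and 0 in mutants (9.06 to 9.37). Of 10 lens markers 3 fell in morphants (8.18 to 8.63 against 8.81 to 9.08) and 0 in mutants (9.02 to 9.38). Of 10 muscle markers none passed in either group. Of 7 erythrocyte markers and of 6 markers of liver and yolk 1 fell each in morphants and 0 in mutants, and 2 of the latter 6 were below the median of all probe sets. The list means of liver and yolk were 7.64 to 8.05 in morphants and 8.61 to 8.67 in mutants. They were 8.29 and 7.95 in uninjected and 8.68 and 8.87 in sibling wildtype, so the 2 kinds of wildtype did not overlap. In morphants against control 2.81% of named genes fell, and in mutants against control 0.306% were called in either direction. Against mutants, where 9.63% of named genes were lower and 13.5% higher in morphants, 7 of the 9 neuronal, 5 of the 10 lens, 2 of the 7 erythrocyte and 1 of the 6 liver and yolk markers were lower. In the same comparison 2 of the 11 proliferation genes, 1 of the 10 muscle markers (*acta1a*, 0.42, limma adjusted p = 0.0248) and 1 of the 7 erythrocyte markers were higher. The part of these shifts in the values of the ribosomal protein genes was not tested.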

How the data were processed

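RNA of pooled whole zebrafish embryos was measured on 10 arrays (3 morphant, 3 mutant, 2 uninjected wildtype, 2 sibling wildtype). The deposited values are log2 signals, which the authors obtained from the scanner files by RMA with the oligo package in R (version not given in the sources used here). The submitters' processing notes name GCRMA, without a version. The values were used as deposited, and the number of arrays limits their precision. Probe sets were named from the platform annotation, in which 20806 had 1 symbol, 855 several and 53551 none, and all 69 ribosomal protein genes were found in the RefSeq gene table with the same symbol.

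limma (version 3.58.1, in R 4.3.3) fitted 3 groups (control, morphant, mutant) over all probe sets, with two-sided tests and Benjamini-Hochberg adjustment. A fit of 4 groups gave the difference of changes and the contrasts with each wildtype. A gene was called at an adjusted p below 0.05. The scripts were tested on simulated data. The genes, lists and tests were chosen with earlier results of these data known. Named genes were the 5 with the largest positive and negative change per comparison, the stalk genes, *rpsa*, duplicates and relatives, the 3 brightest and dimmest, and, in other lists, the 3 largest called changes in each direction. *rpl5b*, *rpl11*, *rps4x*, *larp1*, *acta1a* and *cdk1* were named after their values were seen. No sequences were analysed here. Alternatives changed the control group, the normalization, the prior, the arrays, the probe sets tested, the threshold, a replicate block and the test, the last being the pairwise tests of 2 groups that the methods name. For single genes the threshold was not changed, and a mean over the probe sets of a gene was not taken.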

Additional observations from a re-analysis of the deposited data

Results flagged for a closer look

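In 29 groups of 4 control arrays, the highest or lowest array was set against the others. In 2 of them, both of ribosomal protein genes, an array stood apart. Chance flags about 1 in 20 such groups. *rpl7l1* read 7.41 in sibling wildtype replicate 2 and 7.73 to 7.77 in the other 3 control arrays. Without that array its change in morphants was 0.65 (limma adjusted p = 0.00613). *rps27.1* read 10.14 in the same array and 10.004 to 10.02 in the others, and without it the change in morphants was -0.38 (adjusted p = 0.0698), no longer called.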

How the results depend on the processing

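For the 69 ribosomal protein genes, the count called in morphants against control (4) was 0 with a 2-fold minimum or in the 2-group tests of the methods, 1 with limma on 2 groups, with a replicate block or with either wildtype alone, and 1 to 3 with single arrays left out. Against mutants (3) it was 0 with a 2-fold minimum, 5 with array weights, arrays centred on bright probe sets or quantile normalization repeated, 6 with 1-symbol probe sets, and 2 to 4 with single arrays left out. In mutants against control, between the wildtypes and for the difference of changes it was 0 in each alternative. The median against mutants (-0.01) was -0.092 with arrays centred on bright probe sets and -0.067 with quantile normalization repeated. With single arrays left out the medians ran from -0.06 to 0.02 (morphants), -0.06 to -0.02 (mutants) and -0.03 to 0.02 (morphants against mutants). Of mitochondrial ribosomal protein genes, 39 in morphants against control became 1 at 2-fold, 16 in the methods' tests, 20 with uninjected wildtype alone and 27 to 40 with arrays left out, and 44 against mutants became 5, 20 in the methods' tests and 29 (without mutant replicate 2) to 43. Of biogenesis genes, 85 became 20 at 2-fold, 35 in the methods' tests and 65 to 87, and 89 against mutants became 28 at 2-fold and 80 to 89. In mutants 0 became 1 with 1-symbol probe sets, uninjected wildtype alone, dim probe sets left out or sibling wildtype replicate 1 left out (0 to 1). Of translation factor and other TOP genes, 4 became 0 at 2-fold, 8 with 1-symbol probe sets, 2 with limma on 2 groups, a replicate block, the methods' tests or uninjected wildtype alone, and 2 to 4 with arrays left out (2 without morphant replicate 1, uninjected replicate 1 or either sibling replicate). Against mutants 8 became 0 at 2-fold, 5 in the methods' tests and 3 to 9 with arrays left out, the lowest without mutant replicate 3 and 4 or 5 without mutant replicate 1 or 2 or morphant replicate 1 or 3. No called value changed direction. The medians of the 69 genes, all near 0, changed sign: against control in morphants without morphant replicate 3 (0.02) and in mutants with quantile normalization repeated (0.004), and against mutants with array weights (0.004), arrays centred on the median (0.002) and, among arrays left out, morphant replicate 2 (0.009) or 3 (0.02) or mutant replicate 1 (0.01) or 2 (0.0002). The cause of these shifts was not tested.

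Replicates were checked for pairing, and 2 of 13 same-numbered pairs of deviations had r over 0.1 (range -0.10 to 0.22). Of 24 pairs with different numbers 0 did (range -0.22 to 0.099). In groups of 2 arrays the deviations mirror each other, so these pairs are not independent. They cannot decide whether replicates were paired. With the replicate block the called ribosomal protein genes were 1 in morphants against control, 0 in mutants against control and 2 against mutants. For single named genes 2814 alternatives were computed. Of these 79 lost a call, 19 gained one and 40 moved an uncalled value by its SD within groups or more. The other 2676 kept a call with its sign, or moved an uncalled value by less than that SD. *rpl10a* and *rpl22l1* were called against mutants in 5 and 8 of 21 alternatives. *rplp2* against control and *rps26l* against mutants were called with 1-symbol probe sets.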
